A study of Sus scrofa with 23 samples.

Results

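The genes described here drive and carry out cell division: 39 names, from the G1/S regulator E2F1 to the mitotic exit enzyme UBE2C, were looked up by gene name in all 6 deposited tables. Of these names 32 were found, 31 as 1 entry and TYMS as TYMS_1 and TYMS_2, numbered copies between which reads may have been split, which gives 33 entries among 35228 gene names. ASPM, TOP2A, MCM5, MCM6, TPX2, BIRC5 and PRC1 are not analysed here. The RNA came from 3-mm coronary artery segments of Yorkshire swine whose cholesterol had been raised, a trait shared by every group. Segments were graded by histology as mild, moderate or severe, and some animals were also diabetic. By their titles, 23 libraries made 5 groups: 4 mild, 4 moderate and 5 severe segments without diabetes, and 6 moderate and 4 severe segments with diabetes. No mild diabetic group is among them, the labels give no age, and they do not say how diabetes or high cholesterol was brought about. They also do not say which animal gave which segment, so the p-values below measure the spread between segments and are too small where segments of 1 animal share a group.

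Most cells of an adult artery rest outside the cell cycle. A cell that re-enters it switches on E2F target genes, among them the MCM helicase and the nucleotide synthesis enzymes that copy DNA, and later the FOXM1 and B-MYB targets that condense chromosomes, build the spindle and divide the cell. In atherosclerosis, smooth muscle cells and macrophages are the cell types best known to divide in the vessel wall. Transcripts of dividing cells are diluted in whole tissue, and in such samples more dividing cells and more RNA per dividing cell cannot be told apart.

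Each table held group means and test results and no value of a single library. A level is the authors' mean normalized count of a group, a read count divided by a scaling factor of its library. Fold changes are on the log2 scale with their standard error after ±, and a gene counts as changed at an adjusted p under 0.05 in the authors' deposited DESeq2 results. Steps left by single reads in the lowest means put the 23 libraries at between about 6.72 M and 15.0 M reads (M, mega). Markers of an artery wall were present: 7 contractile smooth muscle genes summed to 85226 to 120749 and 6 endothelial genes to 5158 to 7030 normalized counts in the 5 groups.

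All 33 entries were measurable in every group, with means from 14.0 (BUB1 in mild segments) to 634.0 (CENPE in severe segments without diabetes), and each had an adjusted p in all 6 tables. Together they made up 0.0409%, 0.0457% and 0.0420% of all normalized counts in mild, moderate and severe segments without diabetes, and 0.0376% and 0.0366% in moderate and severe segments with diabetes. A fitted spread of the mild group was worked out from the deposited standard errors. It was 20.1% of the mean for E2F1 and 56.9% for UBE2C, with a median of 35.0% over the entries. No value per library was available, so this is not an observed spread of the mild libraries. The same fitted spread had a median of 20.9% over the 12194 genes whose 5 group means all reached 50. Of the 33 entries, 22 reached 50 in every group.

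Group means of 1 gene stayed close together. The highest was under 1.5 times the lowest for 14 entries and between 1.5 and 2 times for 13. The 6 entries with a span of at least 2 were CENPE (3.39 times), MCM2 (2.87), TYMS_1 (2.63), CCNE2 (2.33), FOXM1 (2.07) and MCM3 (2.03). In 16 entries the highest mean was that of moderate segments without diabetes, and in 15 the lowest was that of severe segments with diabetes. The genes most often used to gauge proliferation, MKI67 and PCNA, were called in no comparison made here. MKI67, the Ki-67 antigen that coats mitotic chromosomes, averaged 443.1, 446.5 and 454.0 normalized counts in mild, moderate and severe segments without diabetes and 568.9 and 556.0 in moderate and severe segments with diabetes. PCNA, the clamp that holds DNA polymerase, averaged 622.7, 619.1 and 514.0 without diabetes and 593.4 and 628.6 with it.

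**Figure D1:**
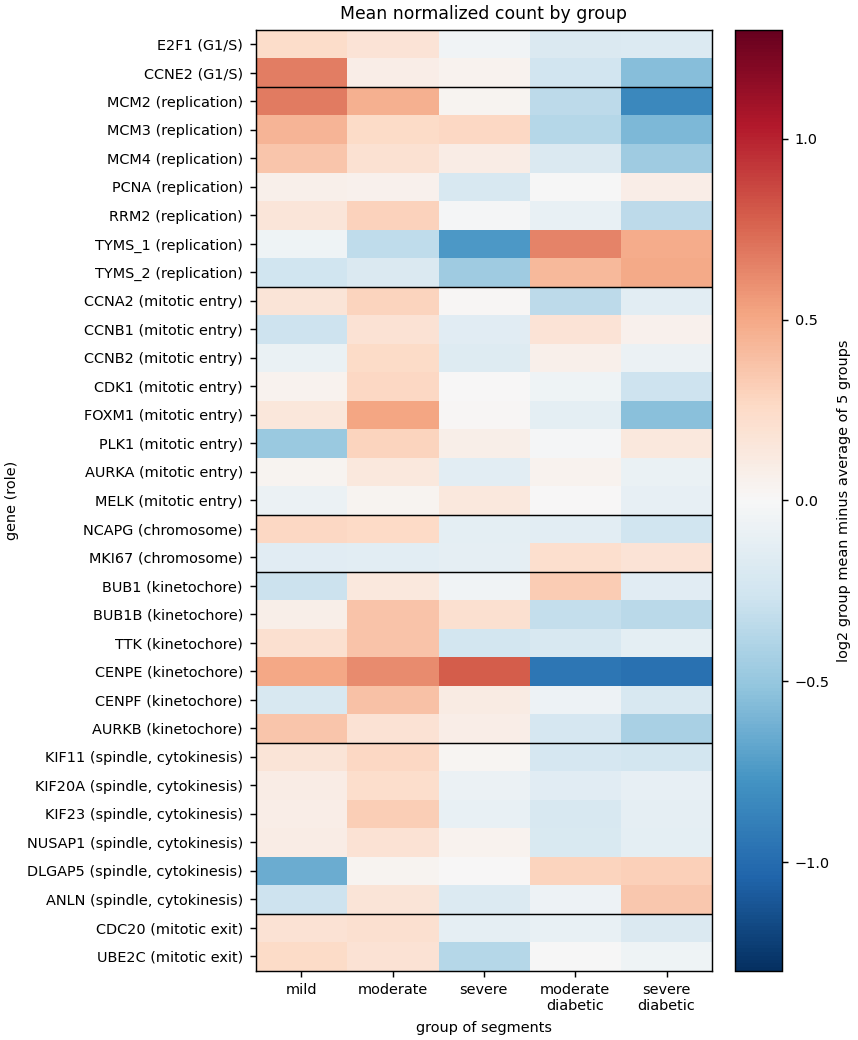
Mean normalized count of each of the 33 cell cycle entries (rows, with role) in the 5 groups (columns), as log2 after subtracting the average of the gene's 5 log2 means. Red is above and blue below that average. CENPE shows the widest contrast, from 634.0 in severe segments without diabetes to 187.1 in severe segments with diabetes.

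The first question was whether cell cycle transcripts rise as lesions form without diabetes. In moderate against mild segments 0 of 33 entries were higher and 0 lower in the authors' deposited DESeq2 table, where 3.56% of all tested genes were higher and 1.08% lower. At an unadjusted p under 0.05 there was 1 entry, DLGAP5, where 16.0% of all tested genes had such a p. The median log2 fold change of the entries was 0.13, against 0.00 over all 18561 tested genes, and 10 of 33 entries (30.3%) were below 0, against 49.3% of all tested genes. By role, all 8 genes of mitotic entry were above 0, from 0.13 to 0.77, with adjusted p of 0.481 or more. They are the cyclins CCNA2, CCNB1 and CCNB2, their kinase CDK1, the transcription factor FOXM1 and the mitotic kinases PLK1, AURKA and MELK. PLK1, which triggers centrosome maturation and mitotic entry, averaged 17.0 in mild and 29.0 in moderate segments, yet its log2 fold change of 0.77 ± 0.49 had an adjusted p of 0.481 in the authors' deposited table. The 5 entries for replication below 0 included MCM2, MCM3 and MCM4, subunits of the helicase that opens DNA, at -0.22 ± 0.47, -0.19 ± 0.39 and -0.16 ± 0.31 in the authors' deposited table. In 21 of 33 entries the 95% interval of the fold change lay between -1 and 1, so a difference of 2-fold is outside it, and in the other 12 it was not.

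In severe against mild segments 1 of 33 entries was higher and 0 lower, in a table where 7.19% of all tested genes were higher and 4.80% lower. The 1 entry was DLGAP5, a spindle protein also called HURP that stabilises microtubules at kinetochores. It averaged 128.2 in mild, 205.3 in moderate and 201.7 in severe segments without diabetes, so both lesion groups stood above the mild group and close to each other. In the authors' deposited tables its log2 fold change was 0.66 ± 0.23 in severe (adjusted p = 0.0411) and 0.68 ± 0.24 in moderate segments (adjusted p = 0.0866) against mild. The severe call was lost (adjusted p = 0.0605) when the adjustment ran over every gene with a p-value, low means included. DLGAP5 lies on chromosome 1 from 184500791 to 184550028 of Sscrofa11.1, where the RefSeq table also places LOC110262214. Whether reads were counted by strand is not given in the sources used here, so reads of such overlapping genes cannot be told apart.

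At an unadjusted p under 0.05 there were 2 entries in severe against mild segments, against 24.0% of all tested genes. They were DLGAP5 and CCNE2, a cyclin that starts DNA synthesis, which averaged 114.7 in mild, 76.8 in moderate and 74.5 in severe segments. For CCNE2 the authors' deposited table gives -0.63 ± 0.30 for severe against mild (adjusted p = 0.162). All 7 replication entries were below 0, from -0.69 to -0.17, with adjusted p of 0.352 or more. The median over the 33 entries was -0.15, against -0.03 over 20294 tested genes.

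**Figure D2:**
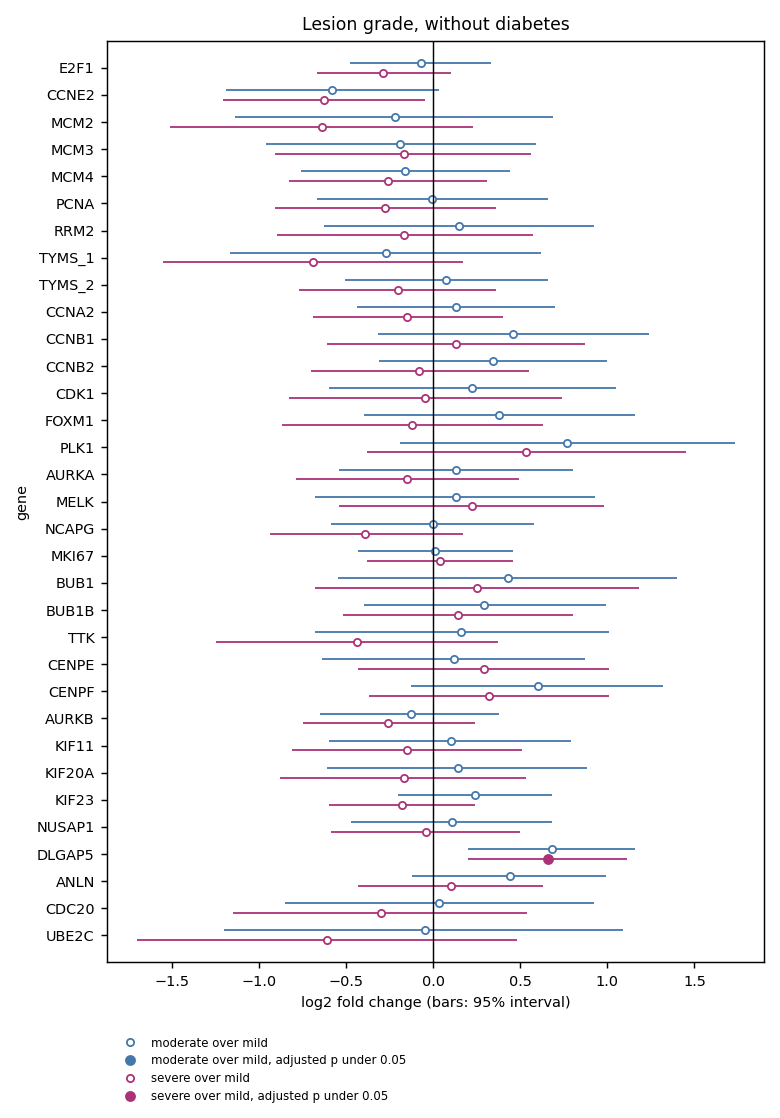
Log2 fold change of each cell cycle entry in moderate (blue, upper) and severe (purple, lower) over mild segments without diabetes, from the authors' deposited tables, with 95% intervals from the standard errors. The filled point past the adjusted threshold is DLGAP5 in severe segments, at 0.66, and every other interval belongs to an entry that was not called.

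Between severe and moderate segments no entry passed the threshold. Without diabetes 0 of 33 were higher and 0 lower in the authors' deposited DESeq2 table, where 0.00507% of all tested genes were higher and 0.0152% lower. At an unadjusted p under 0.05 there were 0 entries, against 3.78% of all tested genes. The median was -0.27 and 29 of 33 entries (87.9%) were below 0, against -0.02 and 53.5% over all tested genes. TTK, a kinase of the spindle checkpoint, had the lowest fold change, with means of 76.3 in moderate and 50.2 in severe segments. With diabetes 0 of 33 were higher and 0 lower, where 0.00332% of all tested genes were higher and 0.00% lower, and 0 had an unadjusted p under 0.05, against 2.87%. Fold changes there ran from -0.50 for MCM2 to 0.41 for ANLN, the scaffold of the cleavage furrow, and 28 of 33 intervals lay between -1 and 1.

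The second question was what diabetes adds at the same lesion grade, and CENPE had the largest fold change of the entries in size. This gene encodes the kinesin that carries chromosomes along spindle microtubules to the cell's equator. It averaged 517.8, 561.8 and 634.0 in mild, moderate and severe segments without diabetes and 191.7 and 187.1 in moderate and severe segments with diabetes. Every diabetic group mean was thus below every non-diabetic one. It was 2.93-fold lower with diabetes in moderate segments (-1.55 ± 0.35, adjusted p = 0.000342) and 3.39-fold lower in severe segments (-1.76 ± 0.37, adjusted p = 0.000176) in the authors' deposited DESeq2 tables. The gene lies on chromosome 8 from 117888968 to 117965325 of Sscrofa11.1, where the RefSeq table places no other gene over it. The other 5 kinetochore and checkpoint genes among the 33 entries did not pass the threshold. CENPF, a large kinetochore protein, averaged 356.7 and 295.6 in moderate and severe segments without diabetes and 260.8 and 236.1 with it, and stood at -0.45 and -0.32 with adjusted p of 0.405 and 0.622 in the authors' deposited tables. BUB1B, a checkpoint protein that works with CENPE, averaged 55.8 and 49.8 without diabetes and 34.8 and 33.8 with it, at -0.67 ± 0.33 in moderate segments (adjusted p = 0.150) in the authors' deposited table.

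In moderate segments 0 of 33 entries were higher and 1 lower with diabetes, CENPE being the 1. Of all tested genes 8.20% were higher and 8.46% lower. At an unadjusted p under 0.05 there were 6 entries, against 28.3% of all tested genes. Besides CENPE these were TYMS_1, TYMS_2, CCNA2, BUB1B and KIF23. CCNA2, the cyclin of S phase and early mitosis, averaged 92.9 without and 59.7 with diabetes (the authors' deposited table: -0.64 ± 0.27, adjusted p = 0.0827). KIF23, a motor of the central spindle, averaged 192.0 without and 133.4 with diabetes (the authors' deposited table: -0.52 ± 0.21, adjusted p = 0.0596). It passed, at an adjusted p of 0.0472, when fold changes were recentred on the median gene, a shift of 0.02. The median of the entries was -0.36, and 28 of 33 (84.8%) were below 0, against -0.03 and 52.5% over 22025 tested genes. In severe segments the median was -0.13, and 21 of 33 (63.6%) were below 0, against 0.01 and 49.2% over 20869 tested genes. The 5 entries above 0 with diabetes in moderate segments included MKI67, at 0.35 with an adjusted p of 0.259 in the authors' deposited DESeq2 table.

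In severe segments 2 of 33 entries were higher and 1 lower with diabetes, where 5.75% of all tested genes were higher and 4.92% lower. There were 4 entries at an unadjusted p under 0.05, against 24.3% of all tested genes. The higher entries were both copies of TYMS, thymidylate synthase, the enzyme that makes the thymidine nucleotide for DNA. TYMS_2 averaged 82.2, 86.8 and 71.5 in mild, moderate and severe segments without diabetes and 132.3 and 138.7 in moderate and severe segments with diabetes. TYMS_1 averaged 23.8, 19.7 and 14.7 without diabetes and 38.6 and 34.4 with it, so that for each copy both diabetic means exceed all 3 non-diabetic ones. In severe segments TYMS_2 was 1.94-fold (0.96 ± 0.28, adjusted p = 0.0127) and TYMS_1 2.32-fold higher with diabetes (1.22 ± 0.43, adjusted p = 0.0454) in the authors' deposited table. In moderate segments they stood at 0.61 ± 0.27 and 0.97 ± 0.41, with adjusted p of 0.107 and 0.0879, in the authors' deposited table. The TYMS_1 call did not hold when the adjustment took in every gene with a p-value (0.0652) or when fold changes were recentred by 0.07 (0.0670). The reference table places 1 TYMS gene, on chromosome 6 from 105642730 to 105660279, and does not tell the copies apart.

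The MCM helicase genes were below 0 in the same comparisons, without passing the threshold. MCM2 averaged 171.7 and 128.5 in moderate and severe segments without diabetes and 98.9 and 69.9 with it, MCM3 190.0 and 191.8 against 123.5 and 106.5, and MCM4 117.2 and 109.7 against 89.6 and 74.6. For severe segments the authors' deposited table gives -0.87 ± 0.45 for MCM2, -0.85 ± 0.38 for MCM3 and -0.55 ± 0.29 for MCM4, with adjusted p of 0.134 or more. The fourth entry at an unadjusted p under 0.05 in severe segments was MCM3 (p = 0.0247 in the authors' deposited DESeq2 table, a fit across all genes, not an exact test). RRM2, the ribonucleotide reductase subunit that makes deoxynucleotides, averaged 97.6 and 78.7 without diabetes and 74.1 and 62.5 with it.

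**Figure D3:**
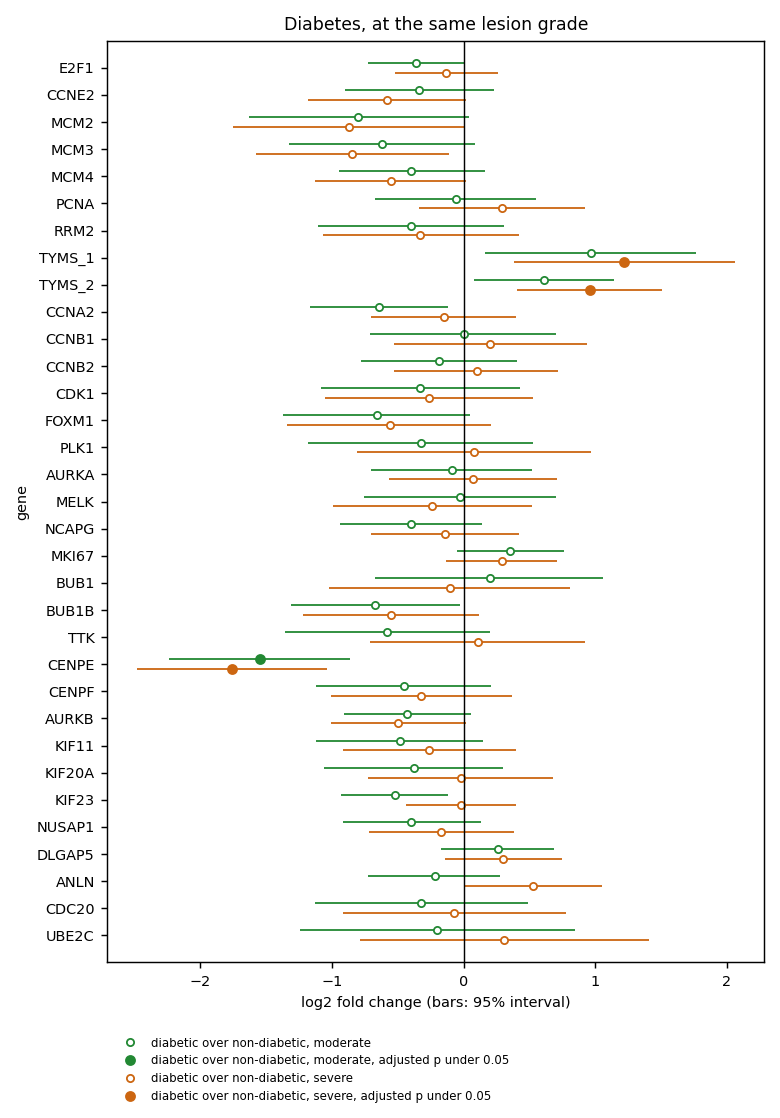
Log2 fold change of each cell cycle entry with over without diabetes in moderate (green, upper) and severe (orange, lower) segments, from the authors' deposited tables, with 95% intervals from the standard errors. Filled points passed the adjusted threshold: CENPE at -1.55 and -1.76, and in severe segments TYMS_1 at 1.22 and TYMS_2 at 0.96.

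Whether diabetes acted differently in severe and in moderate segments was tested for each gene as the difference of the 2 fold changes, with a two-sided Wald test over 17493 genes. Of the 33 entries 0 passed, where 0.00572% of all tested genes were higher and 0.00572% lower in that difference. Its 95% interval lay between -1 and 1 in only 6 of 33 entries, so for most a 2-fold difference was not excluded. The median difference of the entries was 0.20, and 9 of 33 (27.3%) were below 0, against 0.04 and 44.5% over all tested genes. At an unadjusted p under 0.05 there was 1 entry, against 4.04% of all tested genes. It was ANLN, which averaged 456.3 without and 390.4 with diabetes in moderate segments, and 360.1 without and 518.3 with diabetes in severe segments. The difference was 0.75 ± 0.37 (adjusted p = 0.999). For CENPE it was -0.21 ± 0.51, with a 95% interval from -1.21 to 0.79.

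Diabetic segments were also set against mild segments without diabetes, in which grade and diabetes differ together and cannot be told apart. These values were computed from the deposited fold changes and standard errors with Benjamini-Hochberg adjustment over 17493 genes. These comparisons share the mild libraries with those above. In moderate diabetic segments 2 of 33 entries were higher and 3 lower than in mild segments, where 20.4% of all tested genes were higher and 21.4% lower. In severe diabetic segments 2 were higher and 6 lower, where 17.4% and 16.1% were. DLGAP5 averaged 245.6 and 249.0 in moderate and severe diabetic segments, and was 1.92-fold (0.94 ± 0.22, adjusted p = 0.000131) and 1.95-fold (0.96 ± 0.24, adjusted p = 0.000513) above mild segments. Its mean was thus lowest in the mild group and above 200 in all 4 other groups. TYMS_2 was the other higher entry in both, 1.61-fold (adjusted p = 0.0301) and 1.69-fold (adjusted p = 0.0348). The TYMS_2 call in severe diabetic segments was lost when low means were included in the adjustment (0.0554) or fold changes were recentred (0.0512).

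The entries called lower than in mild segments were CCNE2, MCM2 and CENPE in both diabetic groups, and MCM3, MCM4 and AURKB in the severe one. Of the 7 replication entries 3 were above 0 in severe diabetic against mild segments. CCNE2 averaged 60.8 and 49.2 in moderate and severe diabetic segments, 1.89-fold (-0.92 ± 0.29, adjusted p = 0.00483) and 2.31-fold lower (-1.21 ± 0.32, adjusted p = 0.000867) than the mild mean of 114.7. INTS8, which overlaps CCNE2 on chromosome 4, averaged 541.3 to 598.7 over the 5 groups. MCM2 averaged 200.3 in mild segments and was 2.03-fold (adjusted p = 0.0425) and 2.86-fold lower (-1.52 ± 0.47, adjusted p = 0.00597). CENPE was 2.70-fold (adjusted p = 0.000275) and 2.77-fold lower (adjusted p = 0.000985). In severe diabetic segments MCM3 (2.03-fold, adjusted p = 0.0331), MCM4 (1.76-fold, adjusted p = 0.0290) and AURKB, the kinase that corrects chromosome attachment (1.68-fold, adjusted p = 0.0214), were lower too. AURKB averaged 44.6 in mild segments and 26.0 in severe diabetic ones. With low means included in the adjustment, the calls of MCM2 in moderate (0.0668) and MCM3 in severe diabetic segments (0.0527) were lost. E2F1, the factor that switches on these G1/S genes, averaged 128.2 in mild segments, 95.3 in moderate and 95.9 in severe diabetic segments, with adjusted p of 0.0546 and 0.109. Recentred, E2F1 (0.0454) and AURKB (0.0444) passed in moderate diabetic segments. Among the 33 entries, no mitotic gene other than CENPE and AURKB was called lower than the mild group. CCNB1, the cyclin that drives mitosis, averaged 70.9 in mild and 96.9 and 88.8 in diabetic segments, CDK1 88.8 against 82.5 and 71.4, and CDC20, an activator of mitotic exit, 45.0 against 36.8 and 34.6.

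**Figure D4:**
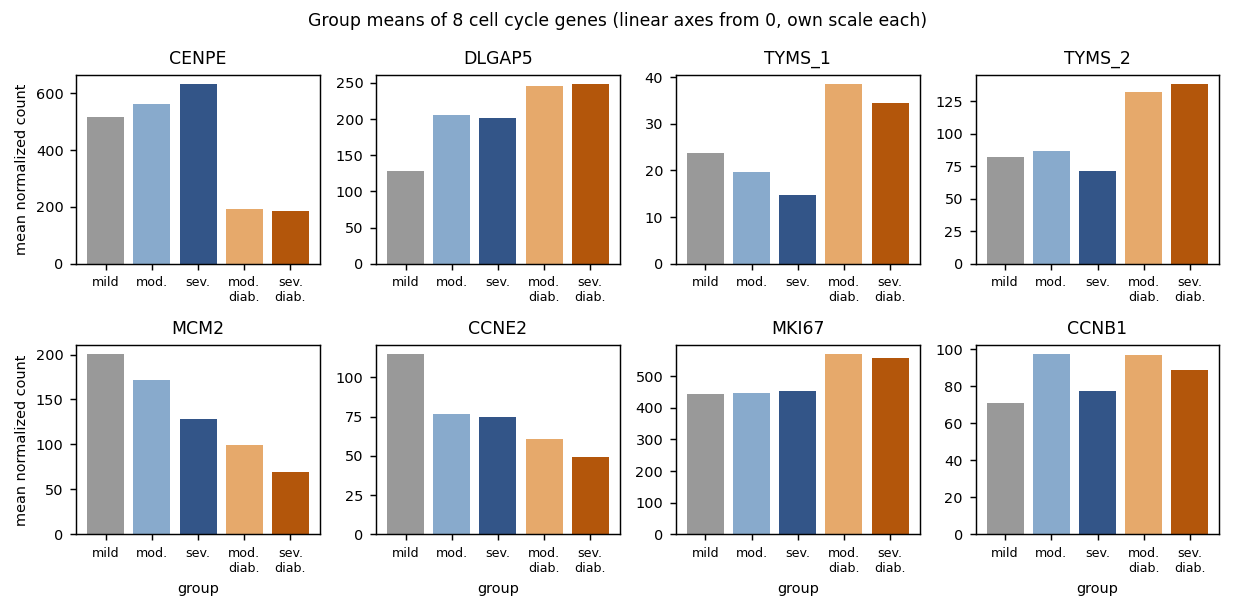
Authors' mean normalized counts of 8 entries in the 5 groups, each on its own linear axis from 0, with no value per library and so no error bars. CENPE falls to 191.7 and 187.1 in the diabetic groups, DLGAP5 is lowest in mild segments at 128.2, and MKI67 stays between 443.1 and 568.9.

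Further genes of the same pathway were read from lists of other cell cycle genes. Of 25 measured licensing and replication genes, 0 were higher and 0 lower in either comparison of lesions with mild segments without diabetes, with medians of -0.08 and -0.08. In those comparisons 3.56% of all tested genes were higher and 1.08% lower in moderate segments, and 7.19% and 4.80% in severe ones. With diabetes 0 were higher and 5 lower in moderate segments, and 0 and 2 in severe segments, with medians of -0.18 and -0.20. Of all tested genes 8.46% were lower in the first table and 4.92% in the second. CDC45, a partner of the MCM helicase, was lower in moderate (-0.67 ± 0.20, adjusted p = 0.0108) and in severe segments (means of 102.3 without and 51.2 with diabetes, adjusted p = 0.000276), as was GINS3 of the same complex (-0.95 ± 0.30, adjusted p = 0.0141, and -1.15 ± 0.31, adjusted p = 0.00607), in the authors' deposited tables. The other genes lower in moderate segments, the last of them named after its value was seen, were POLA1 and PRIM1, of the polymerase that starts new strands, and TIMELESS, which steadies replication forks, at -0.56 ± 0.17, -0.81 ± 0.26 and -0.87 ± 0.30 in the authors' deposited table. Of 39 further mitotic genes 0 were higher and 0 lower in either comparison of lesions with mild segments, 0 and 2 with diabetes in moderate segments, and 0 and 0 in severe segments. These 2 of 39 are set against the 8.46% of all tested genes that were lower in that table. The 2 were the kinetochore genes CENPI (-0.55 ± 0.12, adjusted p = 0.000275) and SKA1 (-0.49 ± 0.16, adjusted p = 0.0198) in the authors' deposited table. Between severe and moderate segments 0 genes of these lists passed, with or without diabetes.

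Genes that hold the cycle back were measured too. CDKN1A, the p21 inhibitor of cyclin-dependent kinases, averaged 460.7, 910.2 and 716.5 normalized counts in mild, moderate and severe segments without diabetes and 1571.3 and 1578.3 in moderate and severe segments with diabetes. It was higher in moderate than in mild segments (0.98 ± 0.25, adjusted p = 0.00450) and higher with diabetes in moderate (0.79 ± 0.23, adjusted p = 0.00690) and severe segments (1.14 ± 0.24, adjusted p = 0.000170) in the authors' deposited tables. Of the 9 measured brakes of the cycle, 1 was higher and 0 lower in moderate against mild segments, where 3.56% and 1.08% of all tested genes were. In severe against mild segments 0 were higher and 0 lower, where 7.19% and 4.80% were. With diabetes 2 were higher and 1 lower in moderate segments, where 8.20% and 8.46% of all tested genes were. In severe segments 3 were higher and 1 lower, where 5.75% and 4.92% were. GAS1, a growth arrest protein of the cell surface, averaged 376.4 and 366.8 without diabetes and 864.3 and 922.7 with it, and GAS2, a protein of the cytoskeleton induced in arrested cells, averaged 57.2 and 64.7 without and 28.3 and 31.3 with it.

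Of 14 measured G1 cyclins, E2F and RB family genes, RB1, the retinoblastoma brake on E2F, was the 1 lower in severe than in mild segments (-0.31 ± 0.08, adjusted p = 0.00220 in the authors' deposited table), and 0 were higher. Of all tested genes 4.80% were lower and 7.19% higher there. In moderate against mild segments 0 of the 14 passed, where 3.56% of all tested genes were higher and 1.08% lower. With diabetes the repressor E2F4 was higher in moderate segments (0.52 ± 0.15, adjusted p = 0.00721), and in severe segments RB1 and LIN54 were higher and E2F7, a repressor of G1/S genes, was lower (-1.65 ± 0.42, adjusted p = 0.00331), in the authors' deposited tables. These were 1 of 14 higher and 0 lower in moderate segments, where 8.20% and 8.46% of all tested genes were. In severe segments they were 2 higher and 1 lower, where 5.75% and 4.92% were. E2F7 averaged 35.3 and 46.6 in moderate and severe segments without diabetes and 17.8 and 14.5 with it.

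Against mild segments, in the computed comparisons where grade and diabetes cannot be told apart, the wider lists moved in both directions. Of all 17493 genes 20.4% were higher and 21.4% lower in moderate diabetic segments, and 17.4% and 16.1% in severe diabetic ones. Of the 25 replication genes 1 was higher and 6 lower in moderate, and 1 and 5 in severe diabetic segments. The 1 higher gene was MCM10, which helps to start replication forks, with means of 15.5 in mild, 39.8 in moderate diabetic and 34.1 in severe diabetic segments (1.36 ± 0.36, adjusted p = 0.000650, and 1.14 ± 0.39, adjusted p = 0.0137). CDC45 (-0.89 and -1.10) and GINS3 (-1.12 and -1.23) were lower in both groups, as was RFC5, of the complex that loads PCNA (-0.47 and -0.37). CDC6, a licensing factor, was lower in severe diabetic segments (-1.69). Of the 39 mitotic genes 3 were higher and 5 lower in moderate, and 2 and 1 in severe diabetic segments. CENPI was lower in both (-0.65 and -0.59), while CDC25C, the phosphatase that activates CDK1, was higher in both (0.70 and 0.71), as was CCNF, a cyclin of a ubiquitin ligase (0.94 and 1.10). SKA1 was lower in moderate diabetic segments (-0.47).

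Of the 14 G1 genes 5 were higher and 4 lower in moderate, and 3 and 3 in severe diabetic segments against mild ones. E2F4 (0.79 and 0.72), the cyclin CCND3 (0.73 and 0.57) and LIN54 (0.25 and 0.34) were higher in both, and E2F7 was lower in both (-1.22 and -1.48). RBL2, a relative of RB1, was lower in moderate diabetic segments (-0.61). Of the 9 brakes 1 was higher and 2 lower in each. CDKN1A was higher (1.77 ± 0.23, adjusted p = 4.98e-13, and 1.78 ± 0.25, adjusted p = 6.72e-11), and GAS2 (-1.39 and -1.23) and CDKN1B, the p27 inhibitor, were lower. CDKN1B stood at -0.87 ± 0.21 (adjusted p = 0.000207) in moderate and -0.59 ± 0.23 (adjusted p = 0.0355) in severe diabetic segments.

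Markers of the cells in the segments differed between the groups as well. Summed over the 33 entries the group means ran from 4268 to 5223 normalized counts. Macrophage markers, 10 measured, summed to 11942 in mild, 15029 in moderate and 20267 in severe segments without diabetes, and to 19488 and 21050 in moderate and severe segments with diabetes. In severe against mild segments without diabetes 5 of the 10 were higher and 1, MRC1, lower, where 7.19% and 4.80% of all tested genes were. MRC1 averaged 2181.8 in mild and 1040.1 in severe segments without diabetes. Foam cell markers, 6 measured, ran from 14052 in mild to 46189 in severe diabetic segments. In the same order of groups, heart muscle markers, 9 measured, summed to 121423, 34010, 29906, 2692 and 3862, adventitial fibroblast markers, 7 measured, to 70881, 39547, 35410, 29649 and 39810, and adipocyte markers, 4 measured, to 4712, 2405, 2509, 983 and 1443. Such sums follow their largest members, and some members moved otherwise. MYH7 gave 70685.6 of the heart muscle sum in mild segments, while NPPA averaged 149.3 in mild and 1757.3 in moderate segments without diabetes. PDGFRA, a fibroblast marker, averaged 735.1 and 742.2 in moderate and severe segments without diabetes and 1456.2 and 1361.2 with it. The 7 contractile smooth muscle genes summed to 120749 in mild segments and to 85226 to 100607 in the other groups. The 8 T cell markers summed to 1153 in mild and 433 in severe diabetic segments, of which CD8B gave 869.5 and 64.7. The sum thus follows CD8B and not most of the list. In that computed comparison 5 of the 8 were higher and 1, CD8B, lower, with a median log2 fold change of 1.36. Of all tested genes 17.4% were higher and 16.1% lower there. CD3D, a higher marker, averaged 12.9 in mild and 40.1 in severe diabetic segments. With diabetes 2 of the 8 were higher and 1 lower in moderate segments, and 3 and 1 in severe segments, in tables where 8.20% and 8.46%, and 5.75% and 4.92%, of all tested genes were higher and lower. The 7 neutrophil markers summed to 83 in mild and 335 to 889 in the other groups. The 6 B cell and plasma cell markers stayed at 8 to 21 and the 2 red cell markers at 38 to 223. The part of these shifts in the levels of CENPE, TYMS, CCNE2 and the MCM genes was not tested.

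**Figure D5:**
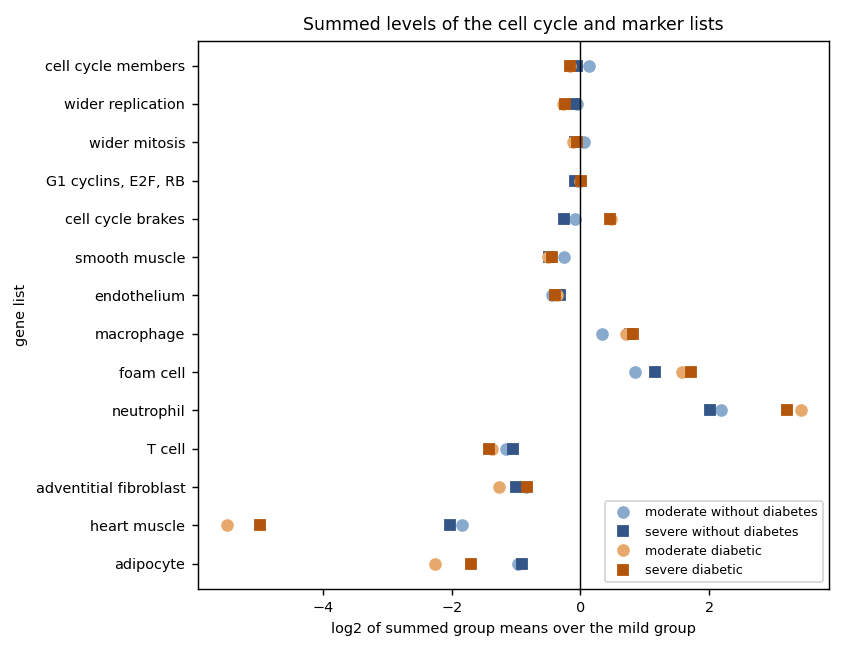
Summed group means of the cell cycle entries, 4 wider cell cycle lists and 9 lists of cell type markers, as log2 over the mild group (line at 0), for moderate (circles) and severe (squares) segments without (blue) and with (orange) diabetes. The cell cycle entries sit near 0, with sums of 4268 to 5223 in all 5 groups, while heart muscle markers range from 2692 to 121423.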

How the data were processed

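Poly-A selected RNA of 23 coronary segments was sequenced by the submitters. DESeq2 and the build Sscrofa11.1 are named in the submitters' processing notes without a version; which aligner, counter or annotation served is not given in the sources used here. There are 6 tables from the authors, each with the mean normalized count per group, a signal named as a normalized mean per the file headers. They also deposited the log2 fold change with its standard error, and the p-value and adjusted p-value, per the file headers. In 3 tables the deposited fold change column holds another kind of value, a spreadsheet error, for genes at 0, which was read as blank here; 5042 names have no fold change.

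Of 35252 lines per table, 24 held a date in place of a name and were left out. One severe library without diabetes (replicate 5) is called moderate and diabetic in its characteristics, and its title was followed; the standard errors imply 5.000 severe and 6.000 moderate diabetic libraries, as the titles do. The deposited p was taken as it is, since no column holds a library; a two-sided Wald test from the deposited values gave the same p to within 4.39e-15. Group variances were solved from the 6 standard errors, which gave the computed contrasts for the 17493 genes averaging 10 or more over the groups and having a p in every table. The calculation of these contrasts was run on simulated levels drawn from the same variances. Such a run checks the arithmetic and cannot check the variances or the sharing of animals. Changes were put into the severe diabetic group only, so the moderate diabetic contrast was checked for false calls alone. Members and lists were chosen with earlier results of these data known. All members are accounted for. Of the wider lists, up to 4 called genes per list and comparison are named, by adjusted p, and TIMELESS was added after its value was seen. A gene named for 1 diabetic group against mild segments is also given for the other where called. RFC5 in severe and E2F7 in moderate diabetic segments thus stand outside those 4. LIN9, called lower in both, ranked outside them each time and is not described. Alternatives were a threshold of 0.1, other gene sets for the adjustment, recentred fold changes and exact names only. Python 3.11.15, numpy 2.4.6, pandas 2.3.3, scipy 1.17.1 and matplotlib 3.10.9 were used.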

Additional observations from a re-analysis of the deposited data

How the results depend on the processing

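Of 86 recomputed counts and medians of the members, 72 stayed within 1.5 times (counts) or 1 standard error (medians), and 14 moved further. At an adjusted p under 0.1, DLGAP5 made 1 entry higher in moderate against mild segments, diabetes in moderate segments counted 1 higher and 3 lower, and moderate diabetic against mild segments counted 7 lower. With the adjustment run over every gene that has a p-value, 0 entries were higher in severe against mild segments, 1 was higher with diabetes in severe segments, and 1 was higher in severe diabetic against mild segments. Recentring on the median gene among those averaging 50 or more gave 2 lower with diabetes in moderate segments, 1 higher in severe segments, 5 lower in moderate diabetic and 1 higher in severe diabetic against mild segments. With exact names only, which drops both TYMS copies by construction, 0 were higher with diabetes in severe segments and 1 in each comparison of diabetic with mild segments. Both CENPE calls for diabetes held under each of these alternatives. Of single genes, 7 recomputed calls were lost and 12 gained. The losses came with the adjustment over every gene that has a p-value or with recentring. Most gains came with the threshold of 0.1 alone, at an unchanged adjusted p. The rest, KIF23, E2F1 and AURKB, came with recentring. Leaving out replicates was not run, since no column holds a value per library. No paired analysis was possible because the columns carry group means only. Means near 14.0 and a fitted spread of up to 56.9% of the mean limit what can be seen.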
